A study of Mus musculus with 24 samples.

Results

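Extracellular vesicles (EVs) are membrane-enclosed particles that cells release into the blood, and they carry microRNAs (miRNAs), short RNAs that bind messenger RNAs and lower their output. The EV miRNAs described here are the 6 mature miRNAs of 5 hairpins that are best known from white blood cells: mmu-miR-142a-3p, mmu-miR-142a-5p, mmu-miR-150-5p, mmu-miR-223-3p, mmu-miR-342-3p and mmu-miR-511-5p, written below without the mouse prefix mmu. They were taken by name from the deposited count table, in which they are 6 of 1966 mature miRNAs, and all 6 had at least 10 CPM, reads scaled to the total of their library, in at least 12 of the 24 libraries, as did 252 of the 1966. Small RNA was sequenced in 1 library per mouse from serum EVs of wild type C57BL/6 mice aged 14 to 16 weeks, with 6 mice in each of 4 groups. Control mice had no surgery, and S6h, S24h and S72h mice had an open tibia fracture, stabilized with a pin under isoflurane and buprenorphine, 6, 24 or 72 h before the blood was drawn. The S24h and S72h mice also received daily analgesia, and the Control mice received saline. All mice were male, and blood was taken from the heart and left to clot, so that the EVs are those of serum.

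The Control mice are those that the study assigned to the S6h mice. The control mice assigned to the S24h and S72h mice were not analysed here. Thus time after surgery, analgesia and assignment of the animals cannot be told apart in any comparison of S24h or S72h with Control or S6h. The study reports no statistical difference between its control groups, which could not be checked here. In every comparison with Control, also that of S6h, surgery, isoflurane and buprenorphine cannot be told apart, because no group had anesthesia alone. Control libraries held between 63956 and 263211 counts in all, and the totals ran from 102568 to 471801 in S6h, from 66652 to 143856 in S24h and from 65017 to 245013 in S72h. Where a miRNA had no read, its true count may be as high as 3, or 6.36 to 46.9 CPM by library, and such limits and the intervals of pooled reads below cover counting error only. Some libraries stood apart in miRNAs of other tissues. The liver list (miR-122 arms) took 16.0%, 15.7% and 12.7% of the counts of Control replicates 1, 4 and 6, against 0.371 to 0.998% in the other 3 Control libraries. It took 29.98% of the counts of S72h replicate 4, and the skeletal muscle list took 23.7% in S72h replicate 1, 25.1% in S6h replicate 2 and 26.5% in S6h replicate 4. Levels below are CPM of the column totals, and fold changes are log2 differences between groups, fitted and tested by quasi-likelihood in edgeR over all 24 libraries at once, with TMM scaling and Benjamini-Hochberg adjustment over the 252 miRNAs tested. A call needed both an adjusted p under 0.05 and a change of 1.5-fold or more.

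miR-142a is made in nearly all blood cells and is used as a general marker of hematopoietic cells. miR-150 is high in mature B, T and NK cells, where it limits the transcription factor Myb, and miR-223 is high in neutrophils and other myeloid cells, where it restrains inflammatory activation. miR-342 is found in lymphocytes and in some myeloid cells. miR-511 lies in a gene of macrophages and dendritic cells, the mannose receptor gene Mrc1. In serum, such miRNAs can leave cells in EVs or bound to proteins, and platelets also hold miR-223. In a bulk EV preparation, fewer vesicles from a cell type and less of a miRNA per vesicle cannot be told apart.

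The mature sequences of 4 of the 6 miRNAs were matched in the RefSeq table of GRCm38.p6. They are shown 5′ to 3′ because a miRNA recognises its targets mainly through the seed, bases 2 to 8, which is in capitals. miR-150-5p and miR-511-5p are named only.
mmu-miR-142a-3p: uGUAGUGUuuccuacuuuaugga
mmu-miR-142a-5p: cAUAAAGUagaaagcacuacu
mmu-miR-223-3p: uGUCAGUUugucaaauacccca
mmu-miR-342-3p: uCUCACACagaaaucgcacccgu

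These 4 seeds differ from one another, and no other of the 1679 mature names in that table had any of them. With bases 2 to 7 alone, miR-223-3p shared its core with miR-344f-5p. miR-142a-3p and miR-142a-5p come from the arms of a single precursor. The Mir142 hairpin of 64 bases is shown with the arm of miR-142a-5p first and that of miR-142a-3p second, both in capitals, because the arm ratio is described further on.
Mir142: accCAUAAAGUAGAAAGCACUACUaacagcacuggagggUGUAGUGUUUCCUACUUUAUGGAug

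In the Gencode annotation of GRCm38, Mir142 lies at chr11:87756864-87756927 on the plus strand, in an intron of the non-coding gene Mir142hg. Mir150 lies at chr7:45121757-45121821 on the plus strand, between genes. Mir223 lies at chrX:96242817-96242926 on the plus strand, in an exon of 2 transcripts of the non-coding gene F630028O10Rik. Mir342 lies at chr12:108658620-108658718 on the plus strand in an intron of Evl, a regulator of actin filaments. Mir511 lies at chr2:14261003-14261081 on the plus strand in an intron of Mrc1. The 5 hairpins thus lie on 5 chromosomes, and none shares a transcript with another in this annotation.

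Each of miR-142a-3p, miR-142a-5p, miR-150-5p, miR-223-3p and miR-342-3p had reads in 24 of 24 libraries, and miR-511-5p had reads in 16 of 24. Over all libraries miR-223-3p had the highest mean level, 3335 CPM, which was rank 54 of the table, followed by miR-142a-5p (2466 CPM, rank 59), miR-342-3p (2155 CPM, rank 65) and miR-150-5p (2154 CPM, rank 66). miR-142a-3p (490 CPM, rank 98) and miR-511-5p (81.5 CPM, rank 186) were lower. Together the members held a median of 1.19% of the counts in Control, 1.03% in S6h, 1.17% in S24h and 1.09% in S72h. The ranges of this share overlapped between all groups, and its lowest values were 0.412% in S72h replicate 4 and 0.522% in S72h replicate 1, the libraries with the high liver and muscle shares. Within a group the highest library exceeded the lowest by 1.61-fold (miR-342-3p in S6h) to 12.2-fold (miR-511-5p in Control) wherever the lowest was above 0.

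**Figure D1:**
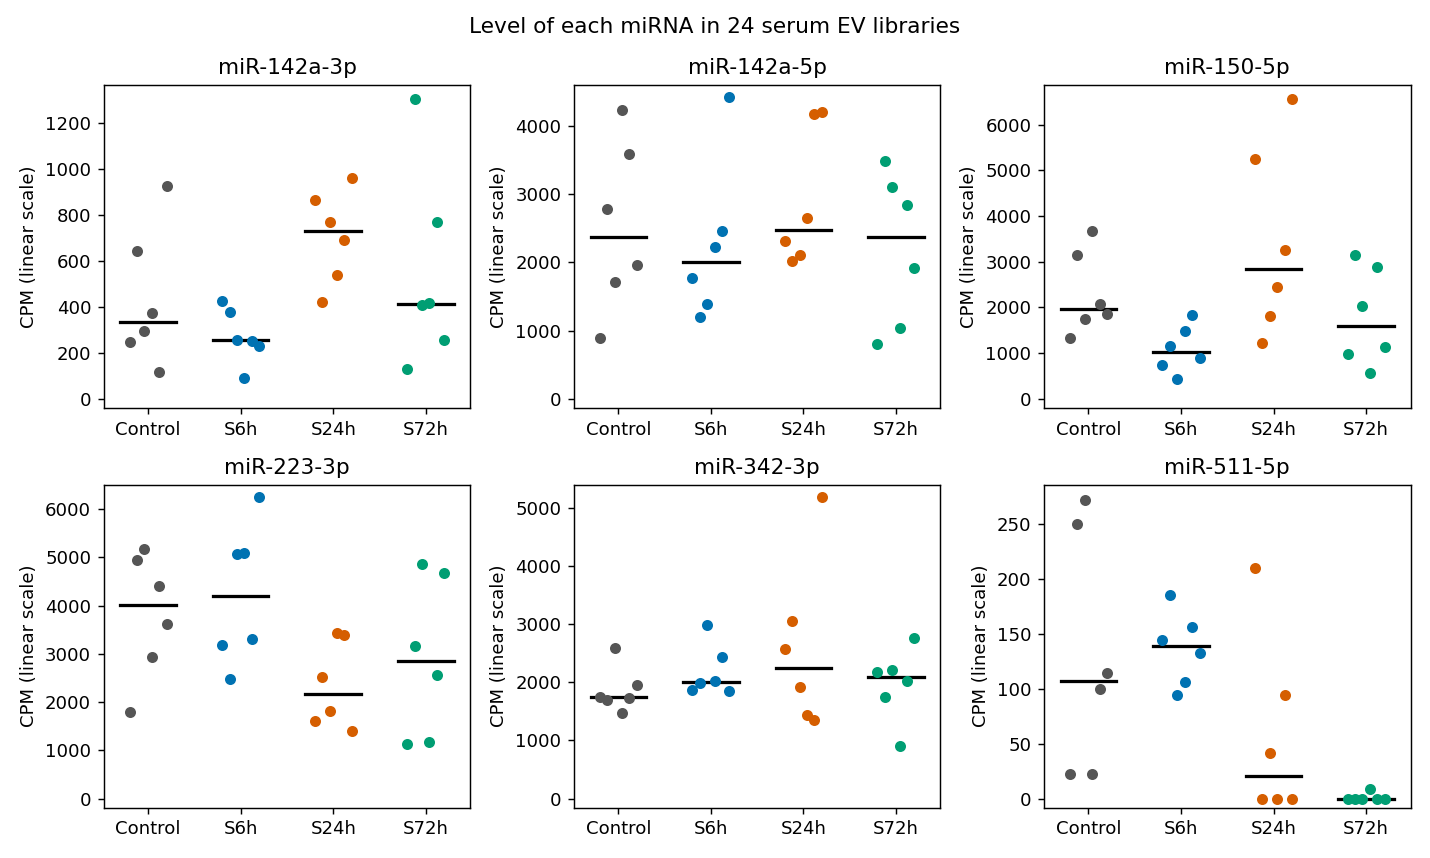
Level of each miRNA in CPM on a linear axis that differs between panels, with 1 point per mouse (6 per group) and a black line at the group median. In the panel of miR-511-5p, 5 of the 6 S72h points lie at 0 and the highest at 9.02 CPM, below the lowest Control point of 22.3 CPM, while in the other panels all groups overlap.

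miR-511-5p, the miRNA within the macrophage mannose receptor gene, was lower at 72 h than in Control and at 6 h. The lowest, median and highest Control libraries had 22.3, 107 and 272 CPM. The S6h libraries had 94.5, 139 and 185 CPM. All 12 of these libraries held miR-511-5p reads, between 3 and 50 per library, and the S6h values lay within the Control range.

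In S24h the lowest, median and highest libraries had 0, 20.9 and 210 CPM, with reads in 3 of 6. In S72h they had 0, 0 and 9.02 CPM. A single read in S72h replicate 4 was the only miR-511-5p read in that group, and 2 S72h libraries with no read had totals above the Control median. The S72h group did not overlap with Control or with S6h, whereas S24h overlapped with every other group.

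Against Control, miR-511-5p fell by 5.53 (SE 1.40) on the log2 scale at 72 h (edgeR, adjusted p = 0.0354). This call was lost when only these 2 groups were fitted (-5.34, edgeR adjusted p = 0.0941) and with the replicate number as a block (-5.52, edgeR adjusted p = 0.0669), and limma-voom gave -3.68 (adjusted p = 0.0263). miR-511-5p was the 1 of 6 members called in this comparison, where 3.57% of all tested miRNAs were called and 1.59% were called lower. The share of tested miRNAs whose CPM did not overlap between these groups was 1.19%. Against S6h it fell by 5.72 (SE 1.40; edgeR, adjusted p = 0.00747), again as 1 of 6 members, with 9.92% of all tested miRNAs called, 5.56% called lower and 1.59% not overlapping. From 24 to 72 h the log2 difference was -4.28 (SE 1.37), which did not pass the threshold (edgeR, adjusted p = 0.127). It was -1.80 with limma-voom, and with edgeR -3.22 without S24h replicate 1 and -5.97 without S72h replicate 4. At 24 h the differences from Control (-1.25, SE 1.07) and from S6h (-1.44, SE 1.07) were close to their errors (edgeR, adjusted p = 0.485 and 0.403), whereas limma-voom called the difference from S6h (-2.75, adjusted p = 0.0171). Leaving out 1 library moved them between -2.31 (without S24h replicate 1) and -0.80 (without S24h replicate 6) against Control, and between -2.50 (without S24h replicate 1) and -1.18 (without S24h replicate 2) against S6h.

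S72h held 1 read, and the fitted log2 difference of miR-511-5p from Control was -5.53 with edgeR and -3.68 with limma-voom. Why the tools differed was not tested, and the reads themselves are therefore given as well. Pooled over 6 mice, Control held 76 reads and S72h held 1, a ratio of CPM of 68.1 with an exact 95% interval from 11.9 to 2724. The ratio of S6h to S72h was 91.4 (16.2 to 3631) and that of S24h to S72h was 35.9 (5.93 to 1466). Leaving out each library in turn was added after seeing the data. Of the 28 pooled S24h reads, 16 came from S24h replicate 1, and without it the ratio of S24h to S72h was 17.8. Without S72h replicate 1 the ratios to S72h were 44.6 (Control), 59.8 (S6h) and 23.5 (S24h). Without S72h replicate 4 no S72h read was left. With 3 reads allowed over that group, the ratio was 19.1 for Control, 25.7 for S6h and 10.1 for S24h. The reads of Control, S6h and S24h were taken as exact there, so these ratios are not lower limits for counting error. At equal depth the difference was as large: thinning each library to the smallest total leaves an expected 5.67 Control, 6.00 S6h, 2.98 S24h and 0.577 S72h libraries with a read. As a description made after seeing the values, in 138 tested miRNAs all Control and all S6h libraries had a read, and in 1 of them (0.725%), miR-511-5p itself, at most 1 S72h library did. This criterion was the pattern of miR-511-5p, which met it in advance, so the share is no test of that pattern.

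miR-511-5p entered the test through the groups in which it was high, since its Control, its S6h and 3 of its S24h libraries were those at or above 10 CPM. Without any filter on low counts the difference between S72h and Control was -5.53 (edgeR, adjusted p = 0.0185). The call at 72 h against Control was lost without Control replicate 2 (adjusted p = 0.0585), Control replicate 5 (0.0621), S72h replicate 2 (0.0576), S72h replicate 3 (0.0668) or S72h replicate 5 (0.0819), each with edgeR. Of all 252 tested miRNAs, 9 were called with all libraries and 1 or 2 in each of these fits. S72h replicates 2, 3 and 5 held 0 miR-511-5p reads. Over the 12 fits without 1 library, the log2 difference lay between -7.05 and -5.13. Why the call was lost was not tested. Without S72h replicate 1 or replicate 4, the libraries rich in muscle and liver miRNAs, the log2 difference was -5.21 and -7.05 (edgeR, adjusted p = 0.0486 and 0.0233). The call against S6h was kept whichever of the 12 libraries was left out, with values from -7.43 without S72h replicate 4 to -5.40 without S72h replicate 1, and it was -4.55 with limma-voom. The other arm, miR-511-3p, had 8 reads in 3 libraries and was not tested.

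**Figure D2:**
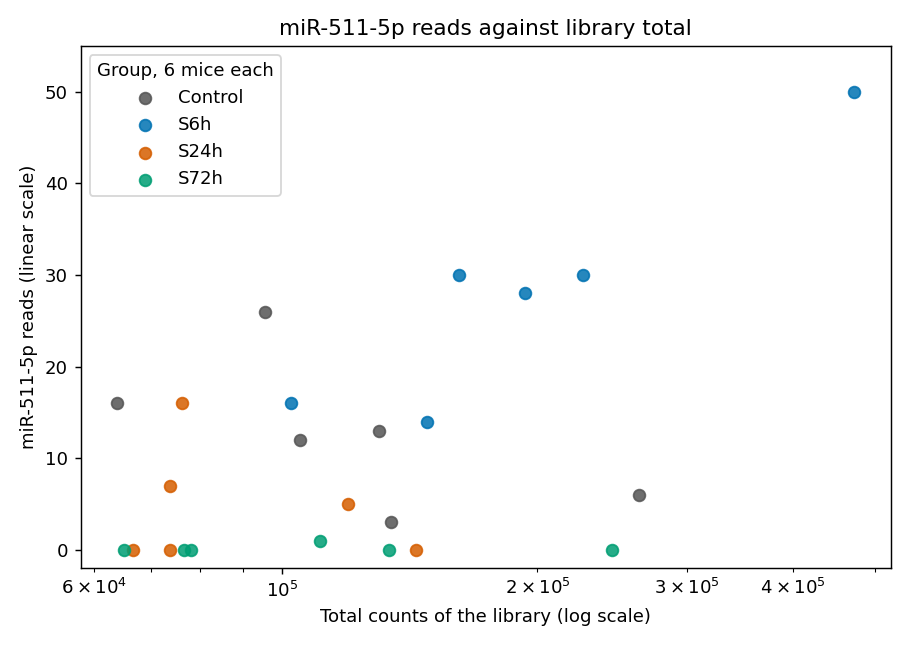
miR-511-5p reads in a library (vertical axis, linear) against the total counts of that library (horizontal axis, log scale), with 1 point per mouse, coloured by group. S72h libraries lie at 0 or 1 reads across totals from 65017 to 245013, whereas every Control and S6h library has at least 3 reads.

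miRNA lists of other sources are given beside miR-511-5p. The red cell list took a median of 14.5% of the counts in Control, 12.7% in S6h, 6.77% in S24h and 6.84% in S72h, and ranged from 11.3 to 19.8%, 8.01 to 14.3%, 3.54 to 13.0% and 4.52 to 17.7% in these groups. Its median log2 difference at 72 h from Control was -0.90, where that of all tested miRNAs was -0.06. Of its 6 miRNAs, all with reads, 1 was called lower at 72 h against Control, miR-16-5p (-1.01, edgeR adjusted p = 0.0462), and 1 against S6h, the same miR-16-5p (-1.19, edgeR adjusted p = 0.00747). miR-16-5p was also the second most similar to miR-511-5p over the libraries (Pearson's r = 0.60), after miR-143-3p (0.61). From 24 to 72 h the median log2 difference of the red cell list was 0.32, with 1 of 6 negative. The skeletal muscle list took a median of 5.32% of the counts in Control, 11.8% in S6h, 3.32% in S24h and 2.77% in S72h, and its median log2 difference was -1.41 at 72 h against S6h, with 4 of 4 negative and 0 called, and 0.43 against Control. The liver list took a median of 6.85%, 1.32%, 1.85% and 0.806% in the same order, with ranges of 0.371 to 16.0%, 0.221 to 2.83%, 0.789 to 5.22% and 0.477 to 29.98%. Its 1 tested miRNA, miR-122-5p, had a fitted log2 difference of 2.75 at 72 h against S6h and 0.11 against Control, neither of which passed (edgeR, adjusted p = 0.0780 and 0.975). The part of these sources in the miR-511-5p result was not tested.

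miR-150-5p, the lymphocyte miRNA, was higher at 24 h than at 6 h. The lowest, median and highest libraries had 1334, 1966 and 3665 CPM in Control and 432, 1021 and 1843 CPM in S6h. In S24h they had 1233, 2850 and 6562 CPM, and in S72h 577, 1591 and 3143 CPM. All 6 S6h libraries lay below the Control median and 4 below the lowest Control library, while 4 S24h libraries lay above the highest S6h library.

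From 6 to 24 h miR-150-5p rose by 1.39 (SE 0.40) on the log2 scale (edgeR, adjusted p = 0.0121). It was 1 of 2 members called in this comparison, in which 20.2% of all tested miRNAs were called (6.35% of all tested were called higher and 13.9% lower), and 2 of 6 members is near that background. Without S24h replicate 6, the library with the highest level, the difference was 1.16 (edgeR, adjusted p = 0.0569), and the call was kept when each of the other 11 libraries was left out. At 6 h against Control the difference was -0.9996 (SE 0.39), with an unadjusted p of 0.0160 and an adjusted p of 0.991 in edgeR. No member was called in that comparison, nor was any of the 252 tested miRNAs (percentage called 0), where miR-150-5p was 1 of 9 miRNAs (3.57%) with an unadjusted p under 0.05. DESeq2 and limma-voom also called 0 of the 252 there, and thus 0 members.

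The other differences of miR-150-5p did not pass the threshold. They were 0.39 (SE 0.39) at 24 h and -0.40 (SE 0.39) at 72 h against Control, with edgeR adjusted p of 0.558 and 0.654. Between 24 and 72 h the difference was -0.79 (SE 0.39; edgeR, adjusted p = 0.431), and between 6 and 72 h it was 0.60 (SE 0.39; edgeR, adjusted p = 0.437). Its other arm, miR-150-3p, had reads in 12 of 24 libraries, 4 in Control, 1 in S6h, 3 in S24h and 4 in S72h, and at most 170 CPM. miR-150-5p was most like miR-142a-5p (Pearson's r = 0.64 over 24 libraries) and miR-340-5p (0.64), a description across libraries that share depth and group.

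miR-223-3p, the myeloid miRNA, moved the other way, being lower at 24 h than at 6 h. The lowest, median and highest libraries had 1789, 4015 and 5166 CPM in Control, and 2478, 4199 and 6253 CPM in S6h. In S24h they had 1404, 2171 and 3436 CPM, and in S72h 1126, 2862 and 4872 CPM. All 6 S24h libraries lay below the medians of Control and of S6h, and 3 lay below the lowest S6h library, but the groups overlapped.

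From 6 to 24 h miR-223-3p fell by 1.06 (SE 0.33) on the log2 scale (edgeR, adjusted p = 0.0226). This call depended on the scaling and on single libraries. It was lost with RLE size factors (-0.79, edgeR adjusted p = 0.0704) and with library totals alone (-0.84, edgeR adjusted p = 0.105). The median of all tested miRNAs was -0.23 with TMM and 0.06 with RLE size factors in this comparison, and relative to that median miR-223-3p stood at -0.83 and -0.85, and miR-150-5p at 1.63 and 1.54. The miR-223-3p call was also lost without S6h replicate 4 (adjusted p = 0.0625), S6h replicate 6 (0.0760), S24h replicate 1 (0.0536), S24h replicate 3 (0.0626) or S24h replicate 6 (0.0677), each with edgeR. Over the 12 fits without 1 library, its log2 difference lay between -1.23 and -0.87. Against Control at 24 h the difference was -0.80 (SE 0.33; edgeR, adjusted p = 0.0915), the smallest adjusted p of the members in that comparison. There 11.9% of all tested miRNAs were called and 0 of 6 members, with 1 member, as against 29.4% of all tested miRNAs, at an unadjusted p under 0.05. DESeq2 called 50 and limma-voom 47 of all 252 tested miRNAs there, and 0 members.

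At 72 h miR-223-3p differed from Control by -0.39 (SE 0.33; edgeR, adjusted p = 0.571) and from S6h by -0.65 (SE 0.33; edgeR, adjusted p = 0.240), and at 6 h it differed from Control by 0.26 (SE 0.32; edgeR, adjusted p = 0.991). Its other arm, miR-223-5p, had reads in 22 of 24 libraries and a mean of 91.6 CPM. The miRNAs most like miR-223-3p were miR-27a-3p (Pearson's r = 0.85) and miR-29a-3p (0.78). The platelet and endothelium list, which matters here because platelets hold miR-223, took a median of 3.34% of the counts in Control, 4.29% in S6h, 2.32% in S24h and 2.399% in S72h, with ranges of 2.73 to 4.98%, 3.62 to 4.82%, 2.03 to 3.98% and 1.61 to 3.84%. Of its 4 miRNAs, all with reads, 2 were called lower at 24 h than at 6 h, miR-199a-3p (-2.26, edgeR adjusted p = 0.000491) and miR-24-3p (-1.01, edgeR adjusted p = 0.0115). The other 2, miR-126a-3p and miR-126a-5p, had differences of 0.24 and -0.12 that did not pass (edgeR, adjusted p = 0.704 and 0.884). The part of platelets in the miR-223-3p result was not tested. The red cell and skeletal muscle lists also had 2 miRNAs each called lower in this comparison. With these 2 lists and the liver list out of the totals and scaling, the difference was -0.88 for miR-223-3p and 1.48 for miR-150-5p (edgeR, adjusted p = 0.0379 and 0.00937).

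**Figure D3:**
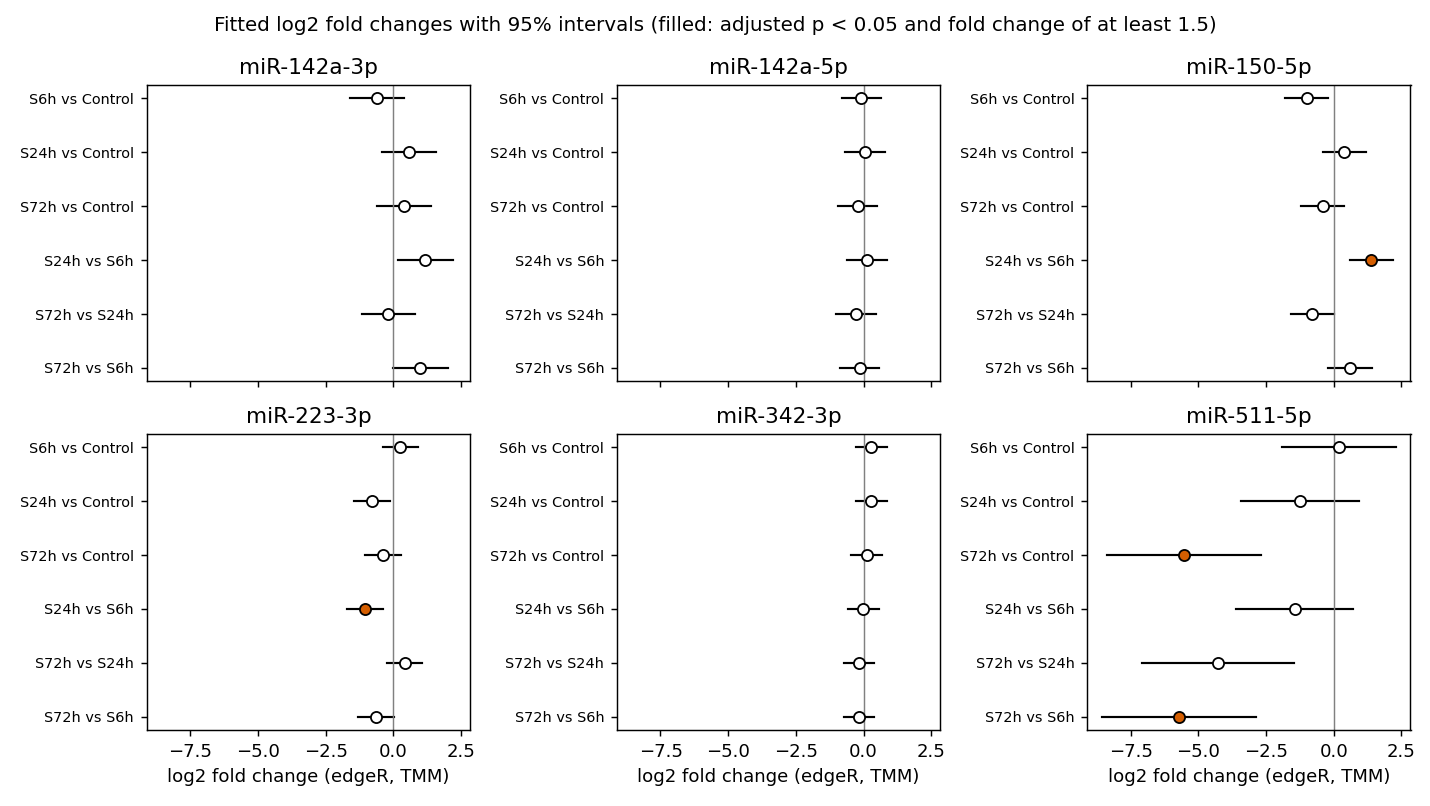
Log2 fold change of each miRNA in the 6 comparisons (horizontal axis), with the 95% interval of the edgeR model as a line and filled points for calls (adjusted p below 0.05, change of 1.5-fold or more). The filled points are miR-511-5p at 72 h against Control (-5.53) and against S6h (-5.72), and miR-150-5p (1.39) and miR-223-3p (-1.06) at 24 h against S6h.

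miR-142a gave reads from both arms of its hairpin. The lowest, median and highest libraries of miR-142a-3p had 115, 333 and 924 CPM in Control, 91.1, 255 and 425 CPM in S6h, 420, 730 and 959 CPM in S24h, and 131, 413 and 1304 CPM in S72h. All 6 S24h libraries lay above the medians of Control and S6h, and 5 lay above the highest S6h library. The log2 difference between S24h and S6h was 1.18 (SE 0.49), which did not pass the threshold (edgeR, adjusted p = 0.0934). DESeq2 (1.40, adjusted p = 0.0227) and limma-voom (1.41, adjusted p = 0.0373) called it, as did edgeR on libraries thinned to the smallest total (1.56, adjusted p = 0.0420).

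miR-142a-3p differed from Control by -0.61 (SE 0.49) at 6 h, 0.57 (SE 0.49) at 24 h and 0.38 (SE 0.49) at 72 h, with edgeR adjusted p of 0.991, 0.488 and 0.745. Its level was most like those of miR-21a-5p (Pearson's r = 0.82) and miR-26a-5p (0.78), both far more abundant at a mean of 68472 and 20996 CPM. The S72h libraries spread the most, with replicate 2 at 9.98 times the level of replicate 1.

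miR-142a-5p had similar medians in the 4 groups. The lowest, median and highest libraries had 889, 2368 and 4224 CPM in Control, 1193, 1998 and 4413 CPM in S6h, 2019, 2474 and 4192 CPM in S24h, and 796, 2372 and 3482 CPM in S72h. The groups overlapped throughout. The log2 differences lay between -0.27 (S72h against S24h) and 0.13 (S24h against S6h), and those from Control were -0.08 at 6 h with a 95% interval from -0.81 to 0.65, 0.05 (-0.68 to 0.78) at 24 h and -0.22 (-0.95 to 0.51) at 72 h. Its level was most like those of miR-30e-5p and let-7g-5p (Pearson's r = 0.65 for each), and its correlation with the other arm was 0.32.

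miR-142a-5p exceeded miR-142a-3p in 24 of 24 libraries. Within a library the ratio of their reads had a median of 5.08 in Control, 7.54 in S6h, 4.59 in S24h and 4.89 in S72h, and ranged from 2.11 to 31.1 in Control. The largest difference of the log2 ratio between groups was -1.02 for S24h minus S6h (exact two-sided permutation test, n = 6 per group, p = 0.0866, 0.234 after adjustment over 18 ratio tests). miR-142b, annotated on the opposite strand over 20 bases of miR-142a-3p, had 0 reads in 24 of 24 libraries. Whether the counting used the strand is not given in the sources used here, so reads of these miRNAs may not have been told apart.

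miR-342-3p, from an intron of Evl, varied least in Control and S6h. The lowest, median and highest libraries had 1468, 1741 and 2599 CPM in Control, 1849, 2006 and 2983 CPM in S6h, 1356, 2246 and 5186 CPM in S24h, and 911, 2093 and 2765 CPM in S72h. The highest S24h value, in replicate 6, and the lowest S72h value, in replicate 4, set the wide ranges of those groups. Its log2 differences from Control were 0.28 (SE 0.28) at 6 h, 0.28 (SE 0.28) at 24 h and 0.11 (SE 0.28) at 72 h, with edgeR adjusted p of 0.991, 0.560 and 0.894. Between the surgery groups they were -0.0039 (S24h against S6h), -0.17 (S72h against S24h) and -0.17 (S72h against S6h). The sign of the first turned with the scaling, which moved the median of all tested miRNAs as well, and measured from that median the S24h value lay 0.23 above S6h with TMM, 0.17 with RLE size factors and 0.25 with library totals. Its other arm, miR-342-5p, had 26 reads in 4 libraries. The miRNAs most like miR-342-3p were miR-181a-5p (Pearson's r = 0.74) and miR-23a-3p (0.64).

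Ratios between members within a library need no scaling. The log2 ratio of miR-223-3p to miR-150-5p, myeloid to lymphocyte, was 0.73 ± 0.65 (SD, n = 6) in Control, 2.03 ± 1.02 in S6h, -0.39 ± 1.28 in S24h and 0.72 ± 0.86 in S72h. Between S24h and S6h it differed by -2.42, and 5 of 6 S24h libraries lay below the lowest S6h library (exact two-sided permutation test, n = 6 per group, p = 0.00433, 0.0779 after adjustment over 18 tests). S6h exceeded Control by 1.30 (exact permutation test, p = 0.0238, adjusted 0.107), a comparison within the mice assigned together, and S72h differed from S24h by 1.11 (exact permutation test, p = 0.132, adjusted 0.273). After adjustment no ratio test passed 0.05, although 924 assignments allow an unadjusted p as small as 0.00216.

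The log2 ratio of miR-342-3p to miR-150-5p was -0.24 ± 0.74 (SD, n = 6) in Control, 1.13 ± 0.88 in S6h, -0.33 ± 0.94 in S24h and 0.30 ± 0.87 in S72h. S6h exceeded Control by 1.37, with 4 of 6 S6h libraries above the highest Control library (exact two-sided permutation test, p = 0.00866, adjusted 0.0779). S24h was below S6h by a difference of -1.47 (exact permutation test, p = 0.0195, adjusted 0.107). In both ratios S6h had the highest mean, and miR-150-5p was the shared denominator, so the ratios are not independent of each other.

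**Figure D4:**
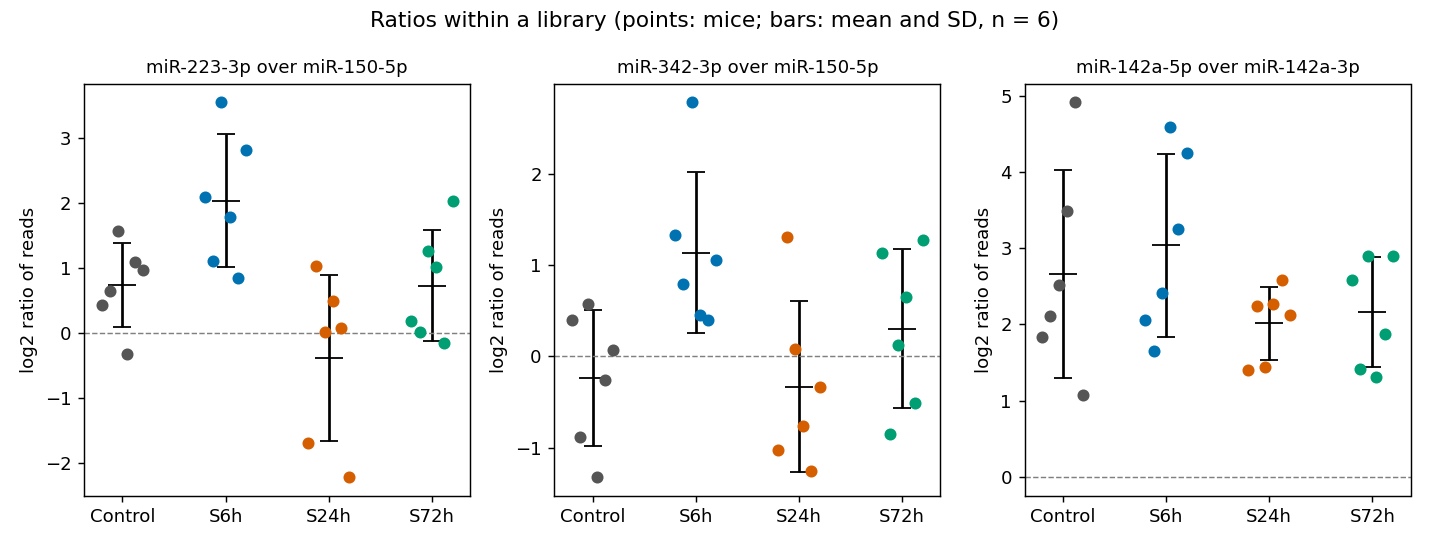
Log2 ratio of the reads of a pair of members within each library (vertical axis), with 1 point per mouse, and the mean with its SD as a bar (n = 6 per group). The ratio of miR-223-3p to miR-150-5p has a mean of 2.03 in S6h and -0.39 in S24h, and the ratio of the miR-142a arms lies above 0 in every library.

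The members did not share a direction in any of the 6 comparisons, so the median of their log2 differences is given only beside that of all 252 tested miRNAs. At 6 h against Control the members' median was 0.06 (all tested -0.02), at 24 h against Control 0.16 (-0.21) and at 72 h against Control -0.31 (-0.06). For S24h against S6h it was 0.06 (-0.23), for S72h against S24h -0.23 (0.09) and for S72h against S6h -0.16 (0.04). From 24 to 72 h, where mice were assigned together, 0 of 6 members were called against 0.397% of all tested miRNAs. There 1 member, miR-511-5p, had an unadjusted p under 0.05, as did 11.5% of all tested miRNAs. DESeq2 called that member (-4.45, adjusted p = 0.0382) and limma-voom called 0, where DESeq2 called 4 of all 252 tested miRNAs and limma-voom 0. The members with a negative difference numbered 3, 2 and 4 of 6 at 6, 24 and 72 h against Control, where 51.6%, 57.9% and 51.98% of all tested miRNAs were negative. They numbered 3 for S24h against S6h (56.7% of all tested), a count that includes miR-342-3p at -0.0039, 5 for S72h against S24h (42.1%) and 4 for S72h against S6h (49.2%).

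A wider list of leukocyte and inflammation miRNAs was looked at beside the members: the opposite arms and miR-142b, miR-146a, miR-146b, miR-155, miR-147, miR-132, miR-181a, miR-181b and miR-21a. Of its 13 miRNAs, 12 had reads and 9 were tested, and edgeR called 0 in any of the 6 comparisons, with 0 to 2 per comparison at an unadjusted p under 0.05. Of all tested miRNAs, edgeR called 0 to 20.2% by comparison. Unadjusted p under 0.05 was found for 3.57% of all tested at 6 h and 29.4% at 24 h against Control, and 11.5% at 72 h against S24h. The list had 0, 1 and 0 in these comparisons. DESeq2 called miR-181a-5p at 24 h against Control and miR-146a-5p at 72 h against S6h, where it called 50 and 36 of all 252 tested miRNAs. limma-voom called miR-132-3p at 24 h against Control and S6h and miR-146a-5p at 72 h against S6h, where it called 47, 66 and 38 of the 252. miR-155-5p, a miRNA induced in activated macrophages and lymphocytes, had a median of 64.8 CPM in Control, 68.3 in S6h, 136 in S24h and 68.5 in S72h, with overlapping groups. miR-146a-5p, which dampens signalling by Toll-like receptors, had medians of 2854, 3527, 2545 and 1521 CPM in the same order. This list took a median of 6.97% of the counts in Control, 6.25% in S6h, 8.45% in S24h and 8.02% in S72h, most of which was miR-21a-5p, with medians of 61330, 53350, 73949 and 71601 CPM in the same order.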

How the data were processed

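Small RNA from serum EVs of 24 mice (6 each in Control, S6h, S24h and S72h, by the sample labels) was analysed. By the study's methods, the authors removed adapters with cutadapt, aligned reads to GRCm38/mm10 with Bowtie, kept reads of miRNA length with Samtools and used featureCounts with the miRBase annotation to count mature miRNAs. The deposited values are whole-number counts without normalization, and the methods state no collapsing of duplicate reads. PCR duplicates and miRNA-specific ligation can therefore shape levels, so levels of different miRNAs are not exact ratios.

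Tests were run with edgeR 4.0.16 (limma 3.58.1, R 4.3.3) on miRNAs with at least 10 CPM in at least 12 libraries, 252 of 1966. Alternatives were DESeq2 1.42.0, limma-voom, RLE factors, library totals, totals without tissue lists, other filters, 2 groups only, thinning, a replicate block and leaving out each mouse. Ratios used a pseudocount of 0.5 and exact permutation tests over 924 assignments (scipy 1.17.1), and likeness used log2(CPM + 4). The edgeR code was also run on simulated counts as a check of the code, and no outcome is reported here. No 2 libraries were identical. Named miRNAs were the 6 members, their opposite arms, called list miRNAs and the 2 most alike. Members and lists were chosen with earlier results of these data known.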

Additional observations from a re-analysis of the deposited data

Results flagged for a closer look

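miR-511-5p in S72h had 1 library apart from the others in a test of spacing, replicate 4 with 1 read (9.02 CPM), while the other 5 libraries were at 0. That read lies below the 12.2 to 46.1 CPM that a count of 0 allows in S72h libraries, so depth cannot tell it from them. With the other 5 libraries at 0, any value above 0 would have been flagged, so the flag was fixed in advance. It was the only flag among 36 sets of 6 libraries (the 6 miRNAs and 3 log2 ratios in 4 groups). By chance 1.8 would be flagged, a number that does not hold for tied zeros.

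The tests of time points against each other passed for miR-150-5p between S24h and S6h (log2 difference 1.39), for miR-223-3p between S24h and S6h (-1.06) and for miR-511-5p between S72h and S6h (-5.72). Since S6h mice and S24h or S72h mice were assigned with different control mice, time and assignment cannot be told apart in them.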

How the results depend on the processing

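In 12 other settings (11 for some miR-511-5p differences, where DESeq2 gave no adjusted p after its independent filtering), the call of miR-150-5p at 24 h against S6h and that of miR-511-5p at 72 h against S6h were kept. The call of miR-511-5p at 72 h against Control was lost with the 2 groups only (-5.34, adjusted p = 0.0941). With the replicate number as a block it was lost too (-5.52, adjusted p = 0.0669), so that 0 members were called in both settings. Of all 252 tested miRNAs, 0 were called with the 2 groups only and 1 with the block. Same-numbered libraries correlated between -0.25 and 0.15, so no pairing by number was evident, although such correlations cannot exclude one. The block changed no other call. The miR-223-3p call at 24 h against S6h was also lost with no filter (-0.95, 0.131) and with DESeq2 without independent filtering (-0.79, 0.0640), the latter a setting added after seeing the data, as was taking out the red cell, liver and muscle lists. Members called at 24 h against S6h were 2 with edgeR, 4 with limma-voom (miR-142a-3p and miR-511-5p added), 3 after thinning (miR-142a-3p added), and 1 each with RLE factors, library totals and no filter. Of all 252 tested miRNAs, 51 were called there with edgeR, 66 with limma-voom and 49 after thinning. RLE factors gave 43 and library totals 37, and with no filter 45 of 667 were called. DESeq2 with its independent filtering passed miR-142a-3p, miR-150-5p and miR-223-3p there and gave no adjusted p for miR-511-5p. Members called at 72 h against S24h were 1 with DESeq2, with and without its independent filtering, where 4 of all 252 tested miRNAs were called in both runs. The median of all tested miRNAs at 24 h against S6h moved from -0.23 with TMM to 0.06 with RLE factors. The cause of these changes was not tested.

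Small differences changed sign where the scale of all miRNAs moved. miR-342-3p at 24 h against S6h was 0.23 with DESeq2 (both runs) and RLE factors, 0.24 with library totals, 0.066 without the red cell list, 0.13 without all 3 lists, 0.12 with no filter, 0.013 with 5 counts in 6 libraries and 0.17 after thinning. miR-142a-5p at 72 h against S6h was 0.042 with DESeq2 (both runs), 0.043 with RLE factors, 0.013 without the 3 lists, 0.0070 with no filter and 0.11 after thinning, and against Control 0.011 without the 3 lists. Measured from the median of all tested miRNAs, these 3 differences kept their sign in all 12 settings and as reported, at 0.16 to 0.37, -0.18 to -0.018 and -0.24 to -0.0066.

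Leaving out each mouse in turn, members called ranged from 0 to 1 at 72 h against Control and from 0 to 2 at 24 h against S6h. Calls over all 252 tested miRNAs ranged from 1 to 14 and from 32 to 47 in these fits. Sign changes gave ranges of -0.41 to 0.19 (6 h), -0.12 to 0.32 (24 h) and -0.39 to 0.051 (72 h) for miR-142a-5p against Control. Against S6h this miRNA ranged from -0.018 to 0.46 at 24 h and from -0.30 to 0.19 at 72 h. miR-342-3p ranged from -0.27 to 0.12 at 24 h against S6h and from -0.29 to 0.0035 at 72 h against S24h. miR-142a-3p ranged from -0.0090 to 0.73 at 72 h against Control and from -0.57 to 0.013 against S24h, and miR-511-5p from -0.025 to 0.58 at 6 h against Control. The log2 ratio of miR-223-3p to miR-150-5p ranged from -2.70 to -2.05 for S24h minus S6h and from -0.27 to 0.17 for S72h minus Control. That of miR-342-3p to miR-150-5p ranged from 1.04 to 1.53 for S6h minus Control, from -0.42 to 0.090 for S24h minus Control and from -1.79 to -1.14 for S24h minus S6h. These ratio tests passed after adjustment without Control replicate 3 (1.53, adjusted p = 0.0390) or S24h replicate 2 (-2.70 and -1.79, adjusted p = 0.0390 each) by exact permutation. At equal depth 0.577 S72h libraries were expected to hold miR-511-5p. The low depth, with 1 read worth up to 15.6 CPM, limits what can be said of miR-511-5p and of the opposite arms.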
